A study of Rattus norvegicus with 12 samples.

Results

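RNA-seq libraries of unstimulated neonatal rat ventricular myocytes (NRVM) given the CDK7/12/13 inhibitor THZ1 were compared with libraries of the same cells given vehicle, to describe what the inhibitor did to gene expression in cells that received no hypertrophic stimulus. The comparison was defined by the sample labels and used 6 of the 12 libraries of the study, 3 with THZ1 alone and 3 at baseline. Genes were tested where their normalized counts averaged at least 10 over the 12 libraries, which kept 14312 of the 15920 genes in the deposited table. The first gene left out had a mean of 9.99 and the lowest gene kept a mean of 10.01.

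NRVM are primary heart muscle cells, here isolated from the ventricles of Sprague Dawley pups on postnatal day 2 to 3 and kept in serum-free medium before treatment. Preplating and BrdU were used to lower the number of nonmyocytes. The baseline libraries received vehicle and the libraries with THZ1 alone received 10 nM THZ1. The remaining libraries received 100 µM phenylephrine (PE), either alone (3 libraries) or with 10 nM THZ1 (3 libraries). PE is an agonist of α1-adrenergic receptors that is commonly used to induce hypertrophy of cultured myocytes. In the study's methods for inhibitors, cells received vehicle or inhibitor for 3 h before PE was added. The labels give 48 hours of treatment for all 4 groups, but 24 hours stand in the column names of the libraries with PE, without or with THZ1. The labels do not say whether the replicates of a group came from separate cell preparations, so that the p-values below measure the spread between these libraries, which may be technical.

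CDK7 is the kinase subunit of the general transcription factor TFIIH. It phosphorylates the C-terminal domain of RNA polymerase II when transcription starts, and as part of the CDK-activating kinase it also phosphorylates other cyclin-dependent kinases. CDK12 and CDK13 phosphorylate the same domain during elongation. THZ1 binds all 3 kinases covalently. RNA-seq reads the level of a transcript, which reflects both its synthesis and its decay.

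The table names genes by Ensembl rat identifiers without symbols. The annotation table used here (47357 entries) held no Ensembl identifiers, so that 0 of the identifiers could be paired with a symbol. The results are therefore given by size of change, by expression level and by response under PE, with values of 4 genes by identifier. The labelled cell type was not checked here against its marker genes for the same reason, nor were the levels of the kinases that THZ1 targets. Because the libraries are of bulk RNA, a smaller number of cells of a type and less RNA per cell cannot be told apart.

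Reads assigned to genes ranged from 32777334 to 45885754 per library at baseline and from 30458862 to 44996532 with THZ1 alone. On the scale of all tested genes, the libraries of a treatment were closer to each other than to those of the other treatment. The Euclidean distance on log2 values ran from 29.4 to 39.4 between baseline libraries, from 25.2 to 28.5 between libraries with THZ1 alone, and from 58.3 to 64.4 between the groups. Replicate 2 at baseline differed from the other baseline libraries in its most abundant genes. The 10 genes with the highest mean held 15.9% of its normalized counts, against 21.6% and 21.5% in replicates 1 and 3. Results that rest on abundant genes are for this reason given with and without that library.

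With the deposited scaling, changes with THZ1 alone were widespread but mostly small, and the large changes were mainly falls. At an adjusted p of 0.05 (limma, Benjamini-Hochberg), 7426 genes differed from baseline, which was 51.9% of those tested. The levels of 3693 genes were higher (25.8%) and those of 3733 were lower (26.1%). An unadjusted p below 0.05 was obtained for 8172 genes. The median log2 change of the genes called higher was 0.32 (quartiles 0.22 and 0.48, median SE 0.062), and that of the genes called lower was -0.43 (quartiles -0.74 and -0.27, median SE 0.072). Over all tested genes the median log2 change was 0.0013 with quartiles of -0.24 and 0.21. The DESeq2 size factors behind the deposited values place the typical gene near no change, which largely sets this median. A change in RNA per cell shared by all genes could not be seen on any scale used here. Without any test, 3936 genes (27.5%) had all 3 THZ1 values above all 3 baseline values, and 3953 genes (27.6%) had them all below.

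The near balance of rises and falls depended on how the libraries were scaled. With the deposited scaling, 49.7% of the called genes were higher. When the libraries were scaled to equal totals, 5922 genes were called higher and 2241 lower, so that 72.5% were higher, and the median log2 change of all tested genes moved up by 0.15. When the totals were made equal over all but the 100 most abundant genes, 4395 genes were called higher and 3230 lower (57.6% higher). The scaling used by edgeR (TMM) gave 3601 genes higher and 3810 lower.

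The split by direction widened with the size of the change. At 1.5-fold or more there were 585 rises and 1292 falls, which were 15.8% of the genes called higher and 34.6% of those called lower. At 2-fold or more there were 146 rises and 512 falls, or 1.02% and 3.58% of all tested genes. At 4-fold or more, 12 genes rose and 62 fell. Many of the large changes were of low genes, since 113 of the 146 rises and 224 of the 512 falls had a mean normalized count below 100. Of all 14312 tested genes, 1512 had a mean of 10 to 30 and 1636 had a mean of 30 to 100.

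In genes whose mean count was 100 or more, in which counting noise is relatively smaller, 33 rose by 2-fold or more and 288 fell by as much. At 4-fold these were 1 rise and 30 falls. More such genes fell by 2-fold than rose under all 18 alternatives that were run. The number of falls ranged from 207 to 303 over them, and the number of rises from 29 to 82. Equal library totals gave 82 rises and 207 falls. Without replicate 2 at baseline, 52 genes of this level rose by 2-fold or more and 294 fell.

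**Figure D1:**
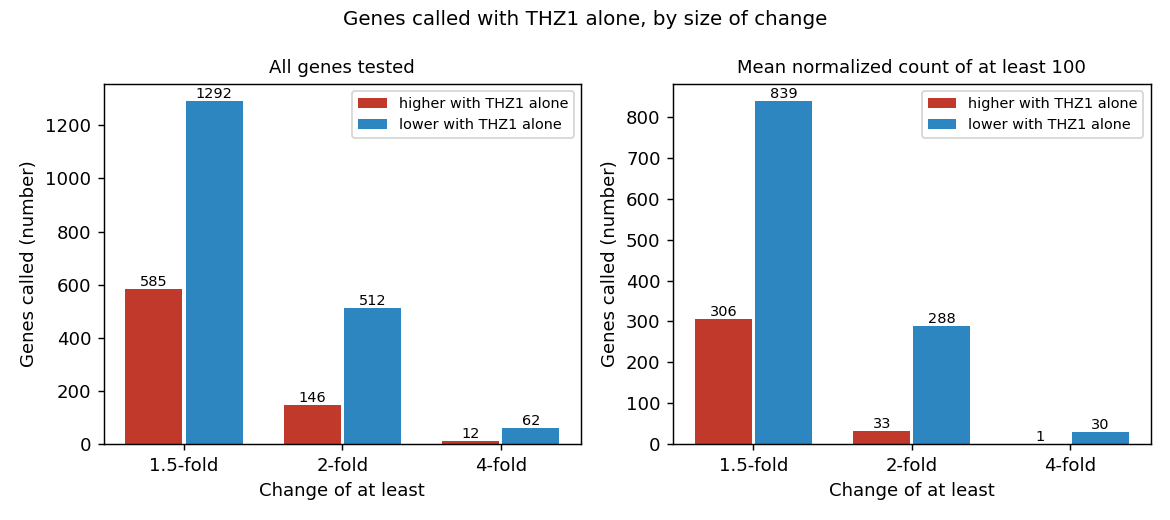
Number of genes called at an adjusted p of 0.05 (limma) with THZ1 alone against baseline (vertical axis) whose change was at least 1.5-fold, 2-fold or 4-fold (horizontal axis). Red bars are rises and blue bars are falls. All 14312 tested genes are on the left and those whose mean count was 100 or more are on the right, where 33 rises stand beside 288 falls at 2-fold.

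With the deposited scaling, the direction of change differed between expression levels. In genes with a mean normalized count of 1000 to 3000, 1188 of 3321 (35.8%) were higher with THZ1 alone and 869 (26.2%) were lower, with a median log2 change of 0.043. In the levels above this the share of falls was larger at each step. Between 3000 and 10000, 562 of 1833 genes were higher and 578 were lower. Between 10000 and 30000, 103 of 416 genes were higher and 172 (41.3%) were lower. With equal library totals more genes were higher than lower in all 3 of these levels, with 1874 higher and 457 lower, 985 higher and 303 lower, and 185 higher and 101 lower, respectively.

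At the 2 highest levels, falls outnumbered rises. Of the 84 genes with a mean of 30000 to 100000, 46 (54.8%) were lower and 15 were higher, and the median log2 change was -0.14 ± 0.024 (SD over the 3 libraries with THZ1 alone). Of the 23 genes with a mean of at least 100000, 18 (78.3%) were lower and 1 was higher, with a median of -0.37 ± 0.066. These falls were mostly modest, since 1 of the 23 genes changed by 2-fold or more. The SDs of both medians leave out the spread between the baseline libraries.

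The scaling moved both of these medians, and leaving out a baseline library moved that of the highest level in either direction. Without replicate 2 at baseline the median of the 23 most abundant genes was -0.53, with 19 lower and 1 higher. The median of these genes was -0.31 without replicate 1 at baseline and -0.28 without replicate 3. With equal library totals and all libraries it was -0.22, with 10 lower and 4 higher, while the median of all tested genes stood at 0.15. For the 84 genes of the next level, the median was -0.14 without replicate 2 at baseline and 0.0069 with equal totals, where 29 were lower and 25 were higher.

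Genes of low level showed fewer calls in either direction. Between 10 and 30, 132 of 1512 genes were higher and 190 were lower, and the median SE of a log2 change was 0.30, against 0.054 for genes between 1000 and 3000. In this lowest level, 69 genes rose and 117 fell by 2-fold or more. Falls also outnumbered rises between 30 and 100 (365 against 219) and between 100 and 300 (560 against 442) with the deposited scaling. Between 300 and 1000 there were 1031 rises and 935 falls. With equal library totals, rises outnumbered falls in each level from 10 to 1000. These were 200 and 150, 346 and 263, 683 and 362, and 1620 and 566, in order of level. The 6886 genes that were not called (48.1%) had a median of their mean normalized counts of 341, against 1020 for genes called higher and 809 for genes called lower.

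**Figure D2:**
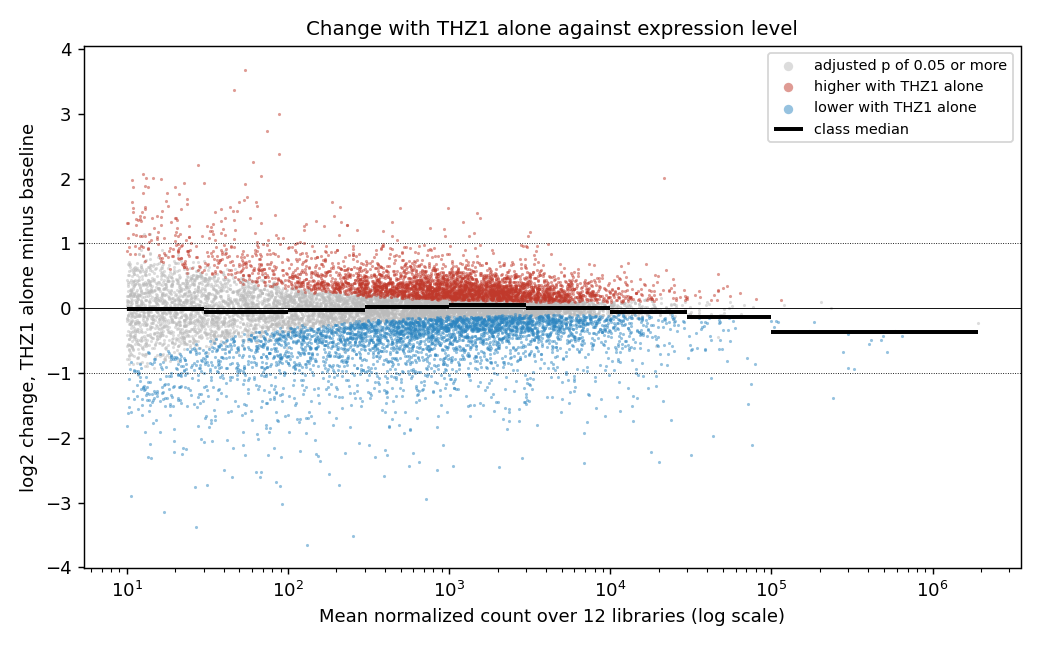
Each point is 1 of the 14312 tested genes, with its mean normalized count over the 12 libraries on a log scale (horizontal axis) and its log2 change with THZ1 alone against baseline (vertical axis). Red and blue mark genes called higher and lower at an adjusted p of 0.05, grey those not called, black bars the median of each expression level and dotted lines a 2-fold change. With the deposited scaling the median lies near 0 at most levels and at -0.37 for the 23 genes at 100000 or more.

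The most abundant genes accounted for most of a lower total of normalized counts. The normalized counts summed to 38.75, 35.79 and 39.38 M (1 M being 1000000 counts) in the 3 baseline libraries and to 34.71, 33.81 and 34.03 M in the 3 libraries with THZ1 alone. The groups did not overlap. The mean difference was -3.79 M (exact permutation test, two-sided, p = 0.1, the smallest that 3 against 3 libraries can give), and -4.88 M without replicate 2 at baseline. The sums are on the size-factor scale of the deposited values, and are not an amount of RNA per cell.

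The sum over the genes called lower differed by -4.99 M, from 17.8 M at baseline to 12.8 M, and that over the genes called higher by 1.59 M, from 7.34 to 8.93 M. The 10 genes with the highest mean accounted for -2.04 M, which was 53.8% of the net difference, and the 100 with the highest mean for -3.04 M, or 80.2%. All other genes of the table together differed by -0.75 M, with 24.4 ± 0.213 M (SD, n = 3) at baseline and 23.6 ± 0.0254 M with THZ1 alone (exact permutation test, two-sided, p = 0.1). Without replicate 2 at baseline the difference in the 10 genes was -2.95 M, and that in all genes outside the 100 was -0.83 M.

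The share of normalized counts held by the 10 most abundant genes was 21.6%, 15.9% and 21.5% at baseline and 16.9%, 15.4% and 15.6% with THZ1 alone. Replicate 2 at baseline thus lay within the range of the libraries with THZ1 alone. The means were 19.6 ± 3.27% and 16.0 ± 0.815% (SD, n = 3), a difference of -3.67 percentage points, or -5.56 without replicate 2 at baseline. The exact permutation test gave a two-sided p of 0.2, where 0.1 is the smallest that 3 against 3 libraries allow, so that no outcome could have reached 0.05.

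**Figure D3:**
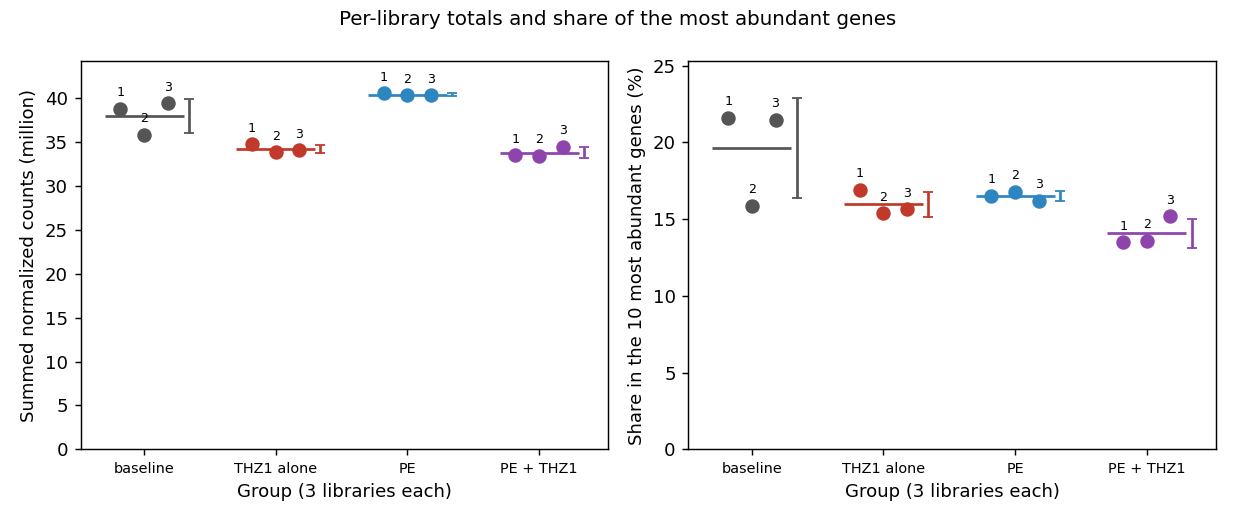
Summed normalized counts in M (left) and percentage held by the 10 most abundant genes (right) for each of the 12 libraries, numbered by replicate, in the 4 groups. Horizontal bars are means and error bars are SD (n = 3). The sums with THZ1 alone (33.8 to 34.7 M) lie below all baseline sums (35.8 to 39.4 M), while the share of baseline replicate 2 (15.9%) lies among those with THZ1 alone.

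Among the 20 genes with the highest mean normalized counts (114673 to 1912225), 15 were called lower with THZ1 alone and 1 was called higher, and the log2 changes ran from -1.38 to 0.13. Over all tested genes 26.1% were lower and 25.8% were higher. These calls are for the deposited scaling. With equal library totals, 10 of the 23 genes at 100000 or more, which include these 20, were lower and 4 were higher. Replicate 2 was the lowest baseline library for 16 of the 20 genes. In 12 of the 20 its value was at or below the highest value with THZ1 alone, and of these 12 genes 7 were called lower and 1 higher, with a median log2 change of -0.38, or -0.60 without that library. In the other 8 genes all 3 THZ1 values lay below all 3 baseline values. Since the change itself decides this split, nothing is read from the larger falls of these 8. Without replicate 2 at baseline, 16 of the 20 genes were called lower and 1 higher.

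The genes with the largest changes were taken from genes called at an adjusted p of 0.05 whose mean count was 100 or more and whose groups did not overlap, conditions that 3091 genes called higher and 2959 called lower met. The changes that ranked them are a description. The same holds for their adjusted p at rest and lack of overlap, which were conditions of the choice. The genes are named by identifier only, so that what they encode is not stated.

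The largest fall was that of ENSRNOG00000011145. Its normalized counts were 259, 226 and 256 at baseline and 23.9, 18.0 and 15.2 with THZ1 alone. Every library with THZ1 alone was far below every baseline library. The means were 247 ± 18.2 and 19.1 ± 4.45 (SD, n = 3), a log2 change of -3.65 (SE 0.18, limma adjusted p = 3.4e-11), which is 12.5-fold lower. Under PE this gene had 239, 246 and 234 normalized counts, and its log2 change of -0.04 against baseline did not pass the test (limma adjusted p = 0.87). With PE + THZ1 it had 15.8, 20.2 and 25.4, a log2 change of -3.51 against PE (limma adjusted p = 1.6e-11), so that the low level was present with the inhibitor in both conditions.

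The second largest fall was that of ENSRNOG00000032924, with 151, 310 and 167 normalized counts at baseline and 16.0, 12.8 and 21.5 with THZ1 alone. The groups did not overlap, although replicate 2 stood well above the other baseline libraries. The means were 209 ± 87.7 and 16.7 ± 4.40 (SD, n = 3), with a log2 change of -3.52 (SE 0.25, limma adjusted p = 3.6e-09), and of -3.20 without that replicate. This gene rose with PE, to 657, 773 and 822 (log2 change 1.91, limma adjusted p = 4.9e-06). With PE + THZ1 it had 31.5, 34.6 and 55.8, a log2 change of -4.21 against PE (limma adjusted p = 1.3e-10). All 3 of these values were below the lowest baseline value.

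The largest rise among genes of this level was that of ENSRNOG00000022637, the 1 gene that rose by 4-fold or more. Its normalized counts were 6669, 8593 and 7989 at baseline and 33376, 29887 and 30425 with THZ1 alone. The groups were widely separated, with means of 7750 ± 984 and 31229 ± 1879 (SD, n = 3). The log2 change was 2.02 (SE 0.077, limma adjusted p = 2.8e-12), which is 4.05-fold. PE alone raised this gene to 14187, 13379 and 12601 (log2 change 0.79, limma adjusted p = 1.6e-07). With PE + THZ1 it had 35309, 34266 and 30719, a range that overlapped that with THZ1 alone, and the log2 change against PE was 1.32 (limma adjusted p = 1.2e-10).

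The second largest rise was less certain. ENSRNOG00000048821 had 183, 86.3 and 82.4 normalized counts at baseline and 280, 358 and 335 with THZ1 alone. The groups did not overlap, but replicate 1 at baseline was above the other baseline libraries. The means were 117 ± 56.9 and 325 ± 40.1 (SD, n = 3), with a log2 change of 1.56 (SE 0.49, limma adjusted p = 0.014). The adjusted p was 0.059 without replicate 3 at baseline (log2 change 1.36) and 0.067 with a prior variance that did not follow expression, which ended the call. The PE libraries of this gene were widely spread, at 466, 311 and 65.7, and with PE + THZ1 it had 73.9, 111 and 178. Its log2 change with the inhibitor under PE was -0.90 and did not pass the test (limma adjusted p = 0.12).

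**Figure D4:**
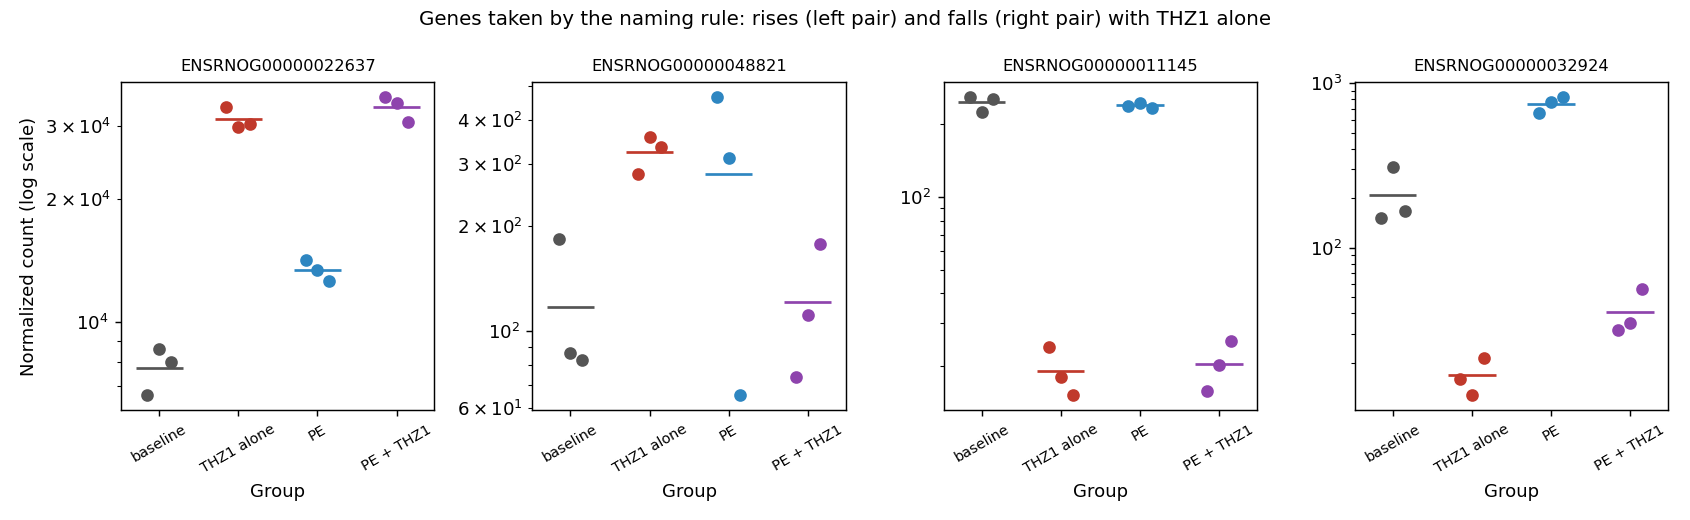
Normalized counts on a log scale (vertical axes, a range of its own in each panel) of the 4 genes named by identifier, in each library of the 4 groups (horizontal axes), with bars at the group means (n = 3). The left pair rose and the right pair fell with THZ1 alone, and 3 of the 4 genes moved the same way with PE + THZ1 against PE, the exception being ENSRNOG00000048821.

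Most genes that changed at rest, that is, with THZ1 alone against baseline, changed in the same direction when the inhibitor was combined with PE. The comparison of PE + THZ1 with PE shares no library with that of THZ1 alone with baseline. In it, 8832 genes (61.7%) were called, 4355 higher (30.4%) and 4477 lower (31.3%). These shares are the background for the counts read under PE. The column names give a different duration for those libraries, as stated above.

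Of the 3733 genes lower with THZ1 alone, 2767 (74.1%) were also lower with PE + THZ1 against PE, 204 (5.46%) were higher and 762 were not called. Their median log2 change was -0.43 at rest and -0.46 under PE. Of the 3693 genes higher with THZ1 alone, 2355 (63.8%) were also higher under PE, 220 (5.96%) were lower and 1118 were not called. Their median was 0.32 at rest and 0.26 under PE. Genes were selected by their change at rest, which raises the size of that change relative to the other comparison.

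Most of the genes with large falls at rest also fell under PE. Of the 512 genes that fell by 2-fold or more at rest, 449 fell under PE (87.7%), 7 rose and 56 were not called. Their median log2 change was -1.34 at rest and -1.39 under PE. Among the 288 of them whose mean count was 100 or more, 279 fell under PE (96.9%), 3 rose and 6 were not called, with medians of -1.31 at rest and -1.53 under PE.

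Of the 146 genes that rose by 2-fold or more at rest, 108 rose under PE (74.0%), 0 fell and 38 were not called, and the median log2 change was 1.33 at rest and 1.16 under PE. Among the 33 with a mean of at least 100, 28 rose under PE (84.8%) and 5 were not called. The difference between rises and falls in the shares given here and below was not tested. Without replicate 2 at baseline the shares of all genes changed by 2-fold were 82.7% for falls and 65.0% for rises. With equal library totals these shares were 84.5% for falls and 80.9% for rises. Over the alternatives, they ran from 82.0 to 95.5% for falls and from 59.7 to 86.8% for rises.

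The genes with large changes under PE were also read at rest, where 26.1% of all tested genes were lower and 25.8% were higher. Of the 772 genes that fell by 2-fold or more with PE + THZ1 against PE, 704 (91.2%) were lower with THZ1 alone, 1 was higher and 67 were not called. Their median log2 change was -1.36 under PE and -0.98 at rest. Of the 467 genes that rose by 2-fold or more under PE, 261 (55.9%) were higher at rest, 9 were lower and 197 were not called, with medians of 1.25 and 0.45. Across all 14312 genes, the log2 changes at rest and under PE had a Pearson r of 0.72 and a Spearman rho of 0.64, a description across genes, which are not independent replicates and which share the scaling of each library.

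**Figure D5:**
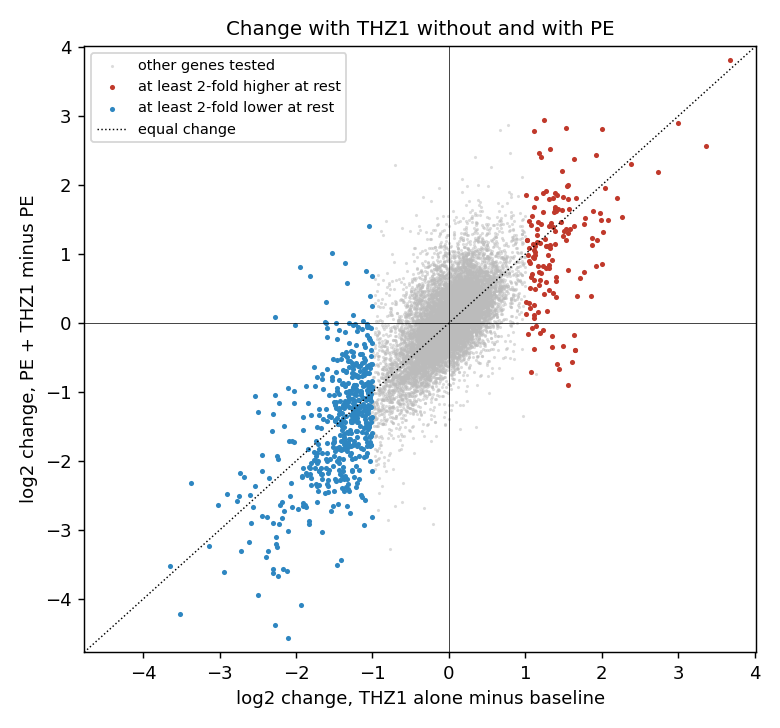
Each point is 1 of the 14312 tested genes, with its log2 change with THZ1 alone against baseline (horizontal axis) and with PE + THZ1 against PE (vertical axis). Blue marks the 512 genes that fell and red the 146 that rose by 2-fold or more at rest, and the dotted line is an equal change. Of the blue points, 449 were called lower under PE as well, and of the red points 108 were called higher.

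The size of the inhibitor's effect nevertheless differed between resting and PE-treated cells for many genes. If the durations in the column names hold, PE and length of treatment cannot be told apart here. The interaction term, which is the effect under PE minus the effect at rest, passed the test for 4603 genes (32.2%), with 1987 positive (13.9%) and 2616 negative (18.3%). The term was 2-fold or more in 235 positive and 129 negative genes. Under the alternatives the number of genes called ranged from 3783 to 6112, the latter without replicate 2 at baseline. It was 4014 with equal library totals. Equal totals also moved the term upward in each gene named by identifier, for example from -0.70 to -0.59 in ENSRNOG00000022637. The split by sign is given for the deposited scaling only. In both comparisons, 5122 genes were called in the same direction and 424 in opposite directions.

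For the larger number of genes called at rest and not under PE, the difference between the conditions did not pass this test. Of the 762 genes lower at rest and not called under PE, the interaction was called for 273 (35.8%), and their median log2 change was -0.36 at rest and -0.06 under PE. Of the 1118 genes higher at rest and not called under PE, it was called for 497 (44.5%), with medians of 0.28 and 0.04. Over all 14312 tested genes the interaction was called for 32.2%. Since the genes of both sets were chosen by a change that is part of the interaction, the counts are a description.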

How the data were processed

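RNA-seq was measured in NRVM in 12 libraries of 4 groups, each assigned by its label. The libraries were made with the KAPA mRNA HyperPrep Kit per the labels. The reads were aligned to rn5 with TopHat2 2.1.1 and counted with HTSeq using strand, per the submitters' processing notes and the study's methods. The unit of the deposited table is a signal, made by the authors from reads per gene by dividing each library by its DESeq2 size factor, with the rat samples in 1 run. All genes listed have at least 1 read in every library, and a column with cluster numbers was not used. A gene with no reads in any 1 library is thus absent and could not be counted among the changes. From the steps of the values, 100% came out as whole reads within 0.01 of a read, with a median of 35381325 reads per library (30458862 to 45885754). Replicates differed by more than counting noise, so that none was counted as a duplicate.

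The log2(normalized count + 1) values were tested with limma 3.58.1 in R 4.3.3, with all 12 libraries in 1 fit, a prior variance that follows expression, two-sided tests, Benjamini-Hochberg adjustment over 14312 genes and a threshold of 0.05. On this log2 scale the change of a low gene is understated. The fit was tested on simulated reads. Alternatives were edgeR 4.0.16 (quasi-likelihood) and DESeq2 1.42.0 on the recovered reads, other scalings, pseudocounts of 0.5 and 5, minimum means of 50 or none, only the 6 libraries compared, no trend in the prior variance, the replicate number as a block, and each of the 6 libraries left out. Equal totals without the 100 most abundant genes, the counts of genes with a mean of at least 100 and the values read without replicate 2 at baseline were chosen after seeing the data. The members, lists and tests were chosen with earlier results of these data known.

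Genes to be named were the largest rises and falls with an adjusted p below 0.05, a mean of 100 or more and groups that did not overlap, and members of gene and marker lists by symbol. As 0 identifiers could be paired with a symbol, the lists and the kinases could not be read, and the naming was limited to 2 rises and 2 falls. No coordinates or sequences were used. Figures were drawn with matplotlib 3.10.9.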

Additional observations from a re-analysis of the deposited data

Results flagged for a closer look

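The effect of THZ1 differed between PE-treated and resting cells by the interaction term for 4603 of 14312 genes (limma, adjusted p of 0.05). If the column names give the true duration, PE cannot be told apart from length of treatment. Among the genes named by identifier, the term was -0.70 on the log2 scale for ENSRNOG00000022637, with a log2 change of 2.02 at rest and 1.32 under PE. For ENSRNOG00000048821 it was -2.46, with a log2 change of 1.56 at rest and -0.90 under PE. Its PE libraries ranged from 65.7 to 466 normalized counts. Both genes were chosen for their large rise at rest, which enters the term with a negative sign, so that these values are a description and not evidence of a difference.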

How the results depend on the processing

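With 18 alternatives the number of genes called with THZ1 alone ranged from 6418 to 8163 (7537 with edgeR, 7088 with DESeq2), within 1.5 times the 7426 reported. The number changed by 2-fold or more was 408 with a minimum mean of 50, against 658, as fewer low genes were tested. The share of called genes that were higher (49.7%) was 47.9% with edgeR, 72.5% with equal totals, 57.6% with equal totals over all but the 100 most abundant genes, 48.5% with only the 6 libraries compared, and 48.5 to 49.4% with 1 library left out. The interaction of ENSRNOG00000011145 (0.13) turned to -0.0080 without replicate 3 of THZ1 alone (-0.0080 to 0.30 over left-out libraries) and was not called in either fit. That of ENSRNOG00000032924 (-0.69, limma adjusted p = 0.14) was -1.01 (limma adjusted p = 0.0061) without replicate 2 at baseline. The cause was not tested. With the replicate block, 7593 genes were called, of which 7350 were also called without it. Deviations of libraries of the same number had r = 0.087, 0.10 and -0.020, so that the numbers were not taken as pairs, and replicate 3 at baseline correlated best with another number (r = 0.10 with replicate 1). The planned medians of gene lists were not run, since no identifier could be paired with a symbol. The median SE of a log2 change was 0.30 for genes with a mean of 10 to 30, and how much of it is counting noise was not tested.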
